A study of Mus musculus with 16 samples.

Results

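The expression of 48 mouse genes of the Wnt pathway was examined in seminal vesicles (SV), the male accessory glands that secrete a large part of the seminal fluid. The genes were taken by symbol from a list of pathway members, which was drawn up with earlier results of these data known. They comprise 17 Wnt ligands, 13 receptors and co-receptors, 9 secreted inhibitors, 4 R-spondin and Lgr genes, 4 intracellular genes and the acyltransferase gene Porcn. All 48 were present among the 31274 genes of the expression table. Wnt4 was not on the list and is not described here.

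RNA-seq was performed on SV from mice on a C57BL/6 background at week 5 (puberty), in 4 groups of 4 samples each. Wild-type pups received corn oil (WT-veh) or diethylstilbestrol (DES), a synthetic oestrogen, in a daily dose of 2 µg per pup from day 1 to day 5 (WT-DES). Mice with a disrupted Esr1 gene, which lack functional oestrogen receptor α (ERα) in the whole animal and not in the gland alone, received the same vehicle (αERKO-veh) or the same DES dose (αERKO-DES). The methods describe individual mice for 3 of the groups and 3 pools, apparently of 5 to 8 mice each, for WT-DES, whereas 4 libraries are labelled WT-DES. Which pool each WT-DES library came from, and whether any share one, is not given in the sources used here, so n = 4 counts libraries in that group. Where libraries are not separate animals, the p-values measure only the spread between these samples, which may be technical. According to the methods, WT pups came from purchased pregnant females and αERKO mice from breeding of heterozygotes. The source of the mice and the genotype therefore cannot be told apart.

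Wnt proteins are secreted lipid-modified ligands that bind Frizzled receptors. Together with the co-receptors Lrp5 and Lrp6 they stabilise β-catenin, which activates target genes with Tcf/Lef factors, whereas binding with co-receptors such as Ror2 drives β-catenin-independent signalling. Secreted antagonists of the Dkk, Sfrp and Wif1 families limit the signal, and R-spondins acting through Lgr receptors raise it. In the developing male and female reproductive tracts, exchange of Wnt signals between epithelium and mesenchyme is known to shape duct growth and patterning.

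Esr1, the check of the genotype, was measured at 2.81 to 4.55 FPKM (fragments scaled to transcript length and library size) in WT-veh and 8.74 to 19.64 after DES in WT. The αERKO values were 1.30 to 1.75 with vehicle and 0.91 to 1.64 with DES, and no αERKO sample reached the WT range. One WT-DES library, sample 1, stood apart from the other WT-DES libraries. Its smooth muscle marker sum was 55.0 on the summed log2(FPKM + 1) scale against 40.5 to 45.3 in the other 3, and it had the lowest of the 16 sample weights in a weighted fit (0.166). Calls and directions that changed without this library are given in each comparison. The deposited values carry no read counts, so depth is unknown and precision was judged from the spread between samples.

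Of the 48 genes, 41 were tested, since the mean FPKM of 1 or more groups was above 1. The other 7, namely Wnt1, Wnt3, Wnt3a, Wnt7a, Wnt8b, Wnt9b and Dkk1, had group means of at most 0.785 FPKM, the level of Wnt9b in WT-DES. Wnt10b, Wnt11, Wnt16 and Sfrp4 passed the filter through WT-DES alone, so a difference from the other groups was built into their selection. Changes are differences of mean log2(FPKM + 1) from limma with Benjamini-Hochberg adjustment over 15988 genes. A differentially expressed gene (DEG) passed an adjusted p of 0.05, differed 1.5-fold or more between the mean FPKM of the groups, and had a mean above 1 in either of them. The log2(FPKM + 1) scale understates the change of low genes.

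The first comparison, WT-DES against WT-veh, asked how neonatal DES had altered expression at puberty when ERα was present. Most of the secreted inhibitors rose, 7 of 10 Frizzled genes rose (5 after a correction for transcript length or with quantile normalisation), Wnt5a and Wnt5b were among the ligands that rose, and Wif1, the most abundant inhibitor gene of vehicle-treated SV, fell 16.7-fold. Of the 41 genes tested, 28 (68.3%) were DEGs, against 52.7% of all genes tested. A total of 23 rose, against a background of 28.9% of genes, and 5 fell, against 23.9%. Without the 4 genes that passed the filter through WT-DES alone, 19 of 37 rose and 5 fell. The median log2 change was 0.55 over the 41 genes and -0.01 over all genes tested. Under a rescaling that left out the 20 most abundant genes, the median of all genes moved to 0.37, and none of the 28 DEGs changed direction. After this rescaling 24 of the 41 genes rose and 4 fell, against 42.2% and 11.5% of all genes. With quantile normalisation 19 genes rose and 8 fell, Wnt10b reversing to -0.11, against 22.8% and 24.5% of all genes. After a correction for transcript length 20 rose and 8 fell, against 27.3% and 20.5%.

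The tissue as a whole differed between these groups, and a whole-gland sample cannot separate fewer cells of a type from less RNA per cell. All 6 fibroblast markers rose in WT-DES, with a summed log2(FPKM + 1) of 37.9 to 39.6 in WT-veh and 47.7 to 48.3 in WT-DES. All 10 leukocyte markers tested rose, with sums of up to 17.6 in WT-veh and 27.5 to 40.7 in WT-DES, and all 5 endothelial markers rose. Epithelial markers fell in 5 of 7 cases, with sums of 52.8 to 54.0 and 48.1 to 50.4, and 5 of 6 smooth muscle markers fell. The smooth muscle sum was 52.7 to 54.8 in WT-veh, so WT-DES sample 1, at 55.0, was not below it. All 8 genes of seminal vesicle secretion were lower (median log2 change -3.70, sums of 99.8 to 101.6 and 61.0 to 76.9), as were all 4 prostate genes (median -5.33). Adipose markers were higher in 4 of 6 cases (median 1.59). No marker of these lists was at 0 in all 4 samples of a group. The part of these shifts in the values of the Wnt genes was not tested.

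**Figure D1:**
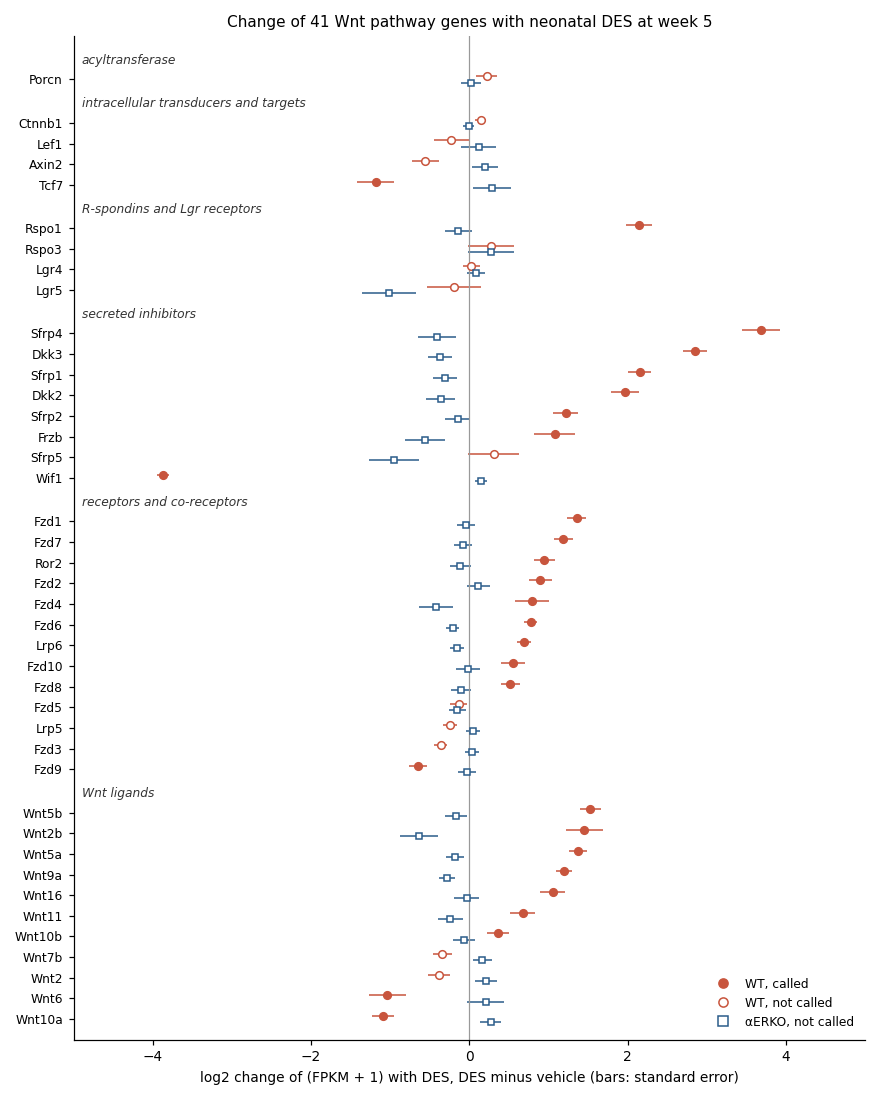
Difference of mean log2(FPKM + 1) between DES and vehicle for the 41 tested genes, by role, in WT (red circles) and αERKO (blue squares), with bars for the standard error and filled symbols for DEGs. In WT, 23 genes lie to the right as DEGs and 5 to the left, with Wif1 at -3.87 and Dkk3 at 2.85, and in αERKO no symbol is filled.

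The secreted inhibitors held the largest changes on the log2(FPKM + 1) scale. Of the 8 tested, 6 rose (background 28.9%) and 1 fell (23.9%), or 5 and 1 of 7 without Sfrp4. Wif1 encodes a secreted protein that binds Wnt ligands directly. It was measured at 108.61, 103.90, 124.28 and 111.28 FPKM in WT-veh and at 7.15, 6.12, 6.57 and 6.99 FPKM in WT-DES. In αERKO-veh it was at 136.66, 112.49, 115.34 and 129.45 FPKM, and in αERKO-DES at 141.52, 126.75, 134.78 and 141.64 FPKM. The 4 WT-DES samples lay far below all 12 others, and the αERKO-DES samples lay above those of WT-veh. The group mean was 16.7 times lower in WT-DES than in WT-veh, with a log2 change of -3.87 ± 0.08 (SE, adjusted p = 8.4e-14), and -3.90 without WT-DES sample 1. In αERKO the change with DES was 0.14 ± 0.08 (adjusted p = 0.25), and the difference between the genotypes in this change was -4.02 ± 0.11 (adjusted p = 7.9e-12).

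The gene lies at chr10:121033960-121100650 on the plus strand (GRCm38, GENCODE M21). The sequence just upstream of its first annotated exon, chr10:121033754-121033959, is shown because this gene had the largest log2(FPKM + 1) change of the 41 tested. It is 206 bases long with 61.7% GC and 17 CpG dinucleotides, from RefSeq promoter windows on GRCm38.p6, and it holds neither the oestrogen response element palindrome nor the TCF/LEF motifs described with the ligands.
Wif1: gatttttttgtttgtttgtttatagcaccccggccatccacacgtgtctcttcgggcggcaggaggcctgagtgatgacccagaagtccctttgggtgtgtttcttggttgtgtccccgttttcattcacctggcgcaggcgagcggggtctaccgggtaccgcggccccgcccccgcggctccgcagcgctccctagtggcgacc

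The other inhibitors tested rose, except Sfrp5. Dkk3, a divergent member of the Dickkopf family, was at 8.88, 7.66, 6.89 and 6.86 FPKM in WT-veh and at 72.16, 70.88, 50.09 and 52.55 FPKM in WT-DES. Its ratio of means was 8.11, with a log2 change of 2.85 ± 0.15 (adjusted p = 1e-09), and in αERKO it ranged from 4.46 to 9.58 FPKM over both treatments. Sfrp4, a secreted Frizzled-related protein gene, was at 0.85, 0.42, 0.67 and 0.97 FPKM in WT-veh and at 17.19, 21.95, 14.47 and 35.23 FPKM in WT-DES. It is given as a description, since it was tested through its level in WT-DES alone, and the log2 difference was 3.68 ± 0.24. The gene was low in the other groups, with αERKO values of 0.53 to 1.83 FPKM (vehicle) and 0.27 to 0.64 FPKM (DES).

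Sfrp1, another soluble decoy for Wnt ligands, was at 10.34, 10.82, 10.23 and 9.41 FPKM in WT-veh and at 52.58, 50.28, 47.50 and 44.65 FPKM in WT-DES, a log2 change of 2.15 ± 0.15 (adjusted p = 9.7e-09). The WT-DES samples did not overlap with those of any other group, since the highest αERKO value was 11.87 FPKM. Dkk2, an antagonist of Lrp5 and Lrp6, rose from 6.72 ± 1.09 FPKM (SD, n = 4) to 29.3 ± 5.40 FPKM. Sfrp2, the second most abundant inhibitor gene of WT-veh, rose from 36.8 ± 1.03 to 89.3 ± 21.5 FPKM, and WT-DES sample 1 was the lowest of its group at 59.17 FPKM. Sfrp5 was the 1 inhibitor tested that was not a DEG in WT, with values of 3.13 to 5.92 FPKM in WT-veh and 2.66 to 8.91 FPKM in WT-DES (log2 change 0.30 ± 0.32, adjusted p = 0.4).

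Frzb, a further Frizzled-related antagonist, was at 0.54, 0.41, 0.32 and 0.89 FPKM in WT-veh and at 3.81, 1.95, 0.88 and 3.01 FPKM in WT-DES. In αERKO-veh it was at 1.05, 2.67, 2.26 and 2.01 FPKM, and in αERKO-DES at 0.86, 0.78, 0.85 and 1.53 FPKM. The gene was low throughout, and the lowest WT-DES sample lay below the highest WT-veh sample. It nevertheless passed the test in WT-DES (1.08 ± 0.25, adjusted p = 0.0014) and in αERKO-veh against WT-veh (0.94 ± 0.25, adjusted p = 0.017).

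Because FPKM is scaled to transcript length, levels of different genes can be added within a sample. The summed FPKM of all genes differed between groups, at 590446 to 652708 in WT-veh and 375207 to 437619 in WT-DES. In αERKO it was 479045 to 558591 with vehicle and 531467 to 622477 with DES. The sums of gene groups given here are not corrected for this. The summed level of the 9 inhibitor genes was 178.9 ± 7.91 FPKM (SD, n = 4) in WT-veh and 266.0 ± 28.8 in WT-DES. Wif1 made up 62.6% ± 2.08 of that sum in WT-veh and 2.55% ± 0.394 in WT-DES. The αERKO shares were 65.2% ± 5.49 with vehicle and 72.1% ± 3.01 with DES. Without Wif1 the WT sum was 66.9 ± 1.14 FPKM with vehicle and 259.2 ± 29.1 with DES, and the αERKO sums were 66.3 ± 12.9 and 52.9 ± 8.06. Wif1 was the main inhibitor transcript in 3 groups and a minor one in WT-DES.

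**Figure D2:**
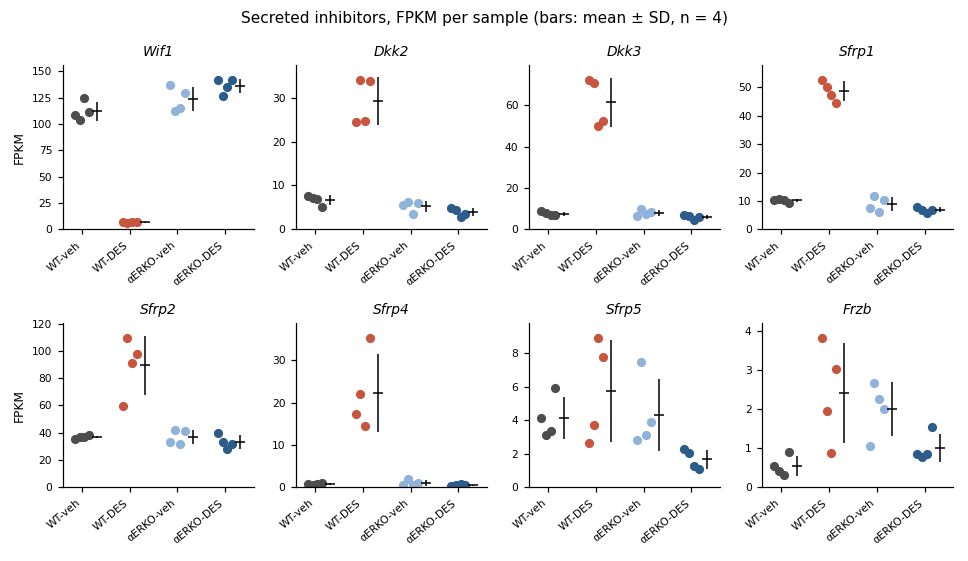
FPKM of the 8 tested secreted inhibitor genes in each sample (points) of the 4 groups on linear axes from 0, with the mean and SD beside them. Wif1 is at 6.12 to 7.15 FPKM in WT-DES and above 100 in every other sample, while Dkk2, Dkk3, Sfrp1, Sfrp2 and Sfrp4 are highest in WT-DES.

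Among the ligands, 9 of the 11 genes tested were DEGs in WT-DES, with 7 higher (background 28.9%) and 2 lower (23.9%). Without Wnt10b, Wnt11 and Wnt16, which were tested through WT-DES alone, 4 of 8 were higher and 2 lower. Wnt5a, a ligand best known for β-catenin-independent signalling, was at 13.55, 16.98, 13.86 and 11.54 FPKM in WT-veh and at 43.65, 32.62, 39.49 and 35.10 FPKM in WT-DES (1.37 ± 0.12, adjusted p = 1.1e-07). The lowest WT-DES sample was above the highest of all other groups, which was 16.98 FPKM. Wnt5b, its closest relative, was at 4.27, 3.81, 4.80 and 4.35 FPKM in WT-veh and at 14.09, 19.22, 12.29 and 12.39 FPKM in WT-DES (1.53 ± 0.14, adjusted p = 1.4e-07). In αERKO it stayed between 2.60 and 4.39 FPKM over both treatments.

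Wnt9a was at 3.51, 3.85, 3.02 and 3.42 FPKM in WT-veh and at 10.74, 9.21, 9.32 and 7.71 FPKM in WT-DES (1.20 ± 0.10, adjusted p = 9.5e-08), again with no overlap with any other group. Wnt2b, an inducer of β-catenin signalling, was at 0.89, 1.13, 1.15 and 0.85 FPKM in WT-veh and at 9.37, 3.25, 3.90 and 3.17 FPKM in WT-DES (1.45 ± 0.24, adjusted p = 6.3e-05). WT-DES sample 1 was far above the other 3 for Wnt2b, and without it the change was 1.15. The WT-DES means of Wnt16, Wnt11 and Wnt10b were 1.24 ± 0.612, 1.88 ± 0.726 and 1.20 ± 0.268 FPKM, against 0.0525 ± 0.0450, 0.775 ± 0.234 and 0.700 ± 0.0583 in WT-veh. Wnt10b was no longer a DEG without WT-DES sample 1 (adjusted p = 0.068).

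Wnt6 and Wnt10a, neighbours on chromosome 1 with a gap of 6193 bp and the same orientation, were the ligands that fell. Wnt6 was at 11.00, 12.03, 10.05 and 11.50 FPKM in WT-veh and at 2.28, 5.54, 7.75 and 5.43 FPKM in WT-DES (-1.04 ± 0.23, adjusted p = 0.00093). It was at 6.66, 5.27, 5.38 and 7.24 FPKM in αERKO-veh and at 8.94, 8.23, 7.15 and 5.01 FPKM in αERKO-DES. The WT-veh samples lay above all others, and without WT-DES sample 1 the change in WT was -0.76. Wnt10a, a ligand of epithelial appendages, fell from 7.22 ± 0.706 to 2.89 ± 0.630 FPKM (-1.09 ± 0.14, adjusted p = 4.4e-06). In αERKO-veh Wnt10a was at 6.30 ± 0.905 FPKM and, unlike Wnt6, was not a DEG against WT-veh.

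Wnt2 and Wnt7b were the leading ligands of WT-veh. Wnt2 was at 24.90, 26.77, 26.92 and 25.20 FPKM in WT-veh and at 27.81, 14.02, 19.97 and 19.15 FPKM in WT-DES. The ranges overlapped through WT-DES sample 1, and the ratio of 1.28 missed the fold threshold (-0.38 ± 0.14, adjusted p = 0.024). Without that sample the change was -0.54 (adjusted p = 0.00039), still short of it. In αERKO the range of Wnt2 was 16.19 to 22.94 FPKM. Wnt7b was at 23.3 ± 2.35 FPKM in WT-veh and 18.2 ± 3.04 in WT-DES, with a change of -0.34 that was -0.45 without sample 1, and was not a DEG in either case.

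As a share of the summed FPKM of the 17 ligands, Wnt2 went from 28.0% ± 1.05 in WT-veh to 16.9% ± 2.99 in WT-DES and Wnt7b from 25.1% ± 2.26 to 15.3% ± 0.720. Wnt5a went from 15.1% ± 2.19 to 31.8% ± 1.81 and became the most abundant ligand transcript, with Wnt5b at 12.4% ± 3.45. By sample, Wnt5a made up between 12.3% and 17.6% of the sum in WT-veh and between 29.7% and 33.7% in WT-DES, without overlap. In αERKO-DES the shares were 28.1% ± 1.95 for Wnt2, 24.4% ± 1.78 for Wnt7b and 16.2% ± 2.74 for Wnt5a. The ligand sum itself was 92.6 ± 3.53 FPKM in WT-veh and 118.5 ± 15.1 in WT-DES.

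RefSeq promoter windows, 250 bases before to 50 after a transcript start, were given for 33 of the 48 genes and comprised 41 windows. The oestrogen response element palindrome, searched on both strands, was in 0 of the 41 windows, beside 0.0700% of the 32851 windows of all genes. The TCF/LEF core followed by A, CTTTGAA, was in 1 window (Dkk1) and is held by 5.14% of all windows. The core followed by T, CTTTGAT, was in 2 windows (Wnt5b and Wnt11) and is held by 3.73%. These windows are shown because Wnt5b and Wnt11 are the DEGs of the list whose windows hold a match. Capitals mark it, in Wnt11 on the reverse strand, and its first base lies 71 and 51 bases before the start. The Wnt5b window, chr6:119449387-119449636 on the minus strand, lies in an intron of the longer transcripts, and that of Wnt11, chr7:98834862-98835111 on the plus strand, lies directly upstream of the gene. Their GC contents are 55.6% and 70.8%, and a match of letters does not show that a factor binds there.
Wnt5b: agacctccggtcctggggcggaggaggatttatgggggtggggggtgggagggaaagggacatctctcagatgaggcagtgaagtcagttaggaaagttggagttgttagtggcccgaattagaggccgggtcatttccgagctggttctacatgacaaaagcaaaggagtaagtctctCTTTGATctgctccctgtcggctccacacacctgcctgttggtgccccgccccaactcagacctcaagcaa
Wnt11: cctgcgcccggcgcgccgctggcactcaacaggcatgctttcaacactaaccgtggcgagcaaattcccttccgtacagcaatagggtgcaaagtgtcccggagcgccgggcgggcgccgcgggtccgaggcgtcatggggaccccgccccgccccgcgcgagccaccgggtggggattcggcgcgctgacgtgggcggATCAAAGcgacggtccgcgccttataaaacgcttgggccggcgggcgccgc

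**Figure D3:**
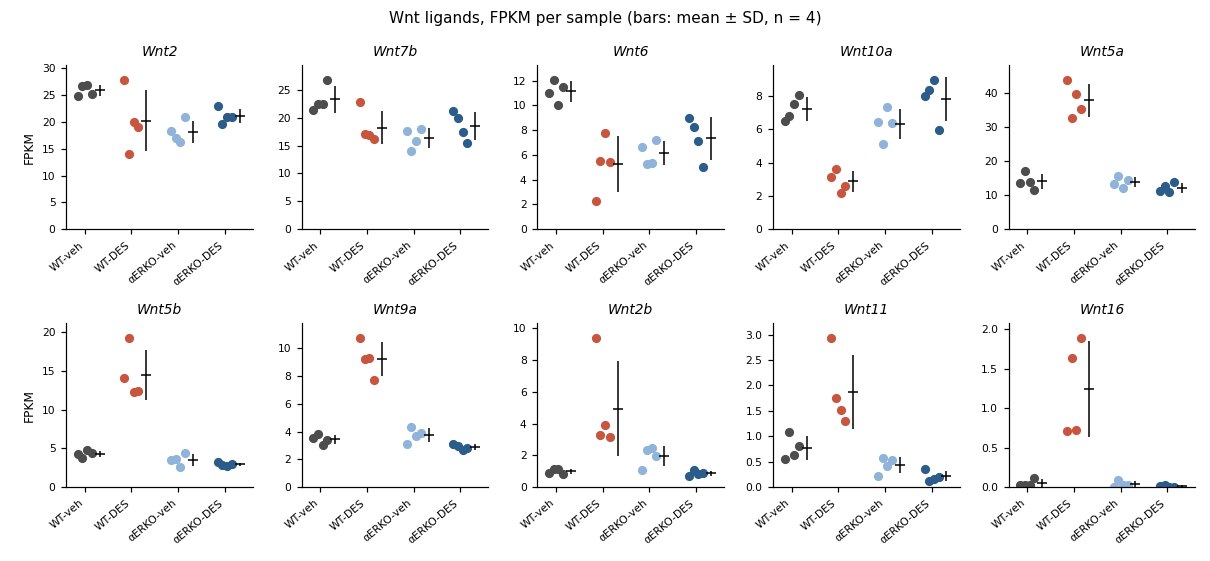
FPKM of 10 Wnt ligand genes in each sample (points) of the 4 groups on linear axes from 0, with the mean and SD beside them. Wnt5a, Wnt5b, Wnt9a, Wnt2b and Wnt16 are highest in WT-DES, Wnt10a is lowest there, and Wnt6 is highest in WT-veh, at 10.05 to 12.03 FPKM.

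Of the 13 receptors and co-receptors, all tested, 9 rose in WT-DES (background 28.9%) and 1 fell (23.9%). After the length correction 6 rose, Fzd4, Fzd8, Fzd9 and Lrp6 no longer being DEGs, and 3 fell (Fzd3, Fzd5 and Lrp5), and with quantile normalisation, under which Fzd8 and Fzd10 were not DEGs, 7 rose and 3 fell (Fzd3, Fzd5 and Fzd9). Fzd1, the most abundant Frizzled gene, was at 23.92, 26.14, 22.28 and 19.85 FPKM in WT-veh and at 79.03, 60.93, 50.03 and 54.50 FPKM in WT-DES (1.35 ± 0.12, adjusted p = 1.2e-07). Fzd7 was at 11.75, 14.50, 9.79 and 9.89 FPKM in WT-veh and at 27.87, 26.80, 29.62 and 24.49 FPKM in WT-DES (1.19 ± 0.12, adjusted p = 4.6e-07). For both receptors every WT-DES sample exceeded every sample of the other groups, in which Fzd1 did not exceed 26.14 and Fzd7 did not exceed 15.53 FPKM.

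Ror2, a receptor tyrosine kinase that binds Wnt5a, was at 4.34, 4.28, 3.36 and 3.82 FPKM in WT-veh and at 11.82, 7.67, 7.88 and 7.31 FPKM in WT-DES (0.95 ± 0.13, adjusted p = 1.5e-05). Fzd2 was at 11.13, 12.23, 9.60 and 11.51 FPKM in WT-veh and at 31.33, 18.26, 19.42 and 18.91 FPKM in WT-DES (0.89 ± 0.14, adjusted p = 5.4e-05). WT-DES sample 1 was well above the other 3 for both. Without it, Ror2 rose by 0.80 and Fzd2 by 0.72 on the log2 scale, and both remained DEGs.

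Fzd4 was at 6.90, 7.63, 5.77 and 4.61 FPKM in WT-veh and at 12.12, 10.50, 9.86 and 13.25 FPKM with DES. Without ERα it was at 7.58, 14.31, 10.85 and 9.74 FPKM with vehicle and at 4.61, 6.85, 9.51 and 10.09 FPKM with DES. It was higher than in WT-veh in both WT-DES (0.79 ± 0.21, adjusted p = 0.0037) and αERKO-veh (0.67 ± 0.21, adjusted p = 0.033). The αERKO samples were widely spread, and the call in αERKO-veh was lost in 8 of 30 alternatives, among them the length correction. Fzd4 serves as the receptor of Norrin in endothelial cells, and the endothelial marker sum was 15.3 to 16.8 in WT-veh and 21.2 to 24.6 with DES, and in αERKO it was 16.6 to 21.1 with vehicle and 16.2 to 17.0 with DES. The part of endothelial cells in these values was not tested.

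Fzd6 rose from 10.6 ± 0.421 to 18.9 ± 1.33 FPKM, Fzd10 from 2.86 ± 0.519 to 4.72 ± 1.16 FPKM and Fzd8 from 2.68 ± 0.427 to 4.29 ± 0.817 FPKM. Without WT-DES sample 1, Fzd8 missed the fold threshold. Fzd9, the 1 receptor that fell, was at 0.990 to 1.24 FPKM in WT-veh and 0.260 to 0.440 FPKM in WT-DES (-0.65 ± 0.12, adjusted p = 0.00014), and it was not a DEG after the rescaling (-0.49), the length correction (-0.48) or the GC correction (-0.51). The summed level of the 10 Frizzled genes was 76.2 ± 7.52 FPKM in WT-veh and 155.7 ± 20.2 in WT-DES. The αERKO sums were 88.5 ± 6.73 with vehicle and 82.1 ± 6.89 with DES.

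Of the paired co-receptors, Lrp6 rose from 13.8 ± 1.58 to 22.7 ± 0.394 FPKM (0.69 ± 0.09, adjusted p = 6e-06), but by 0.21 after the length correction, when it was not a DEG. Lrp5 was at 33.19, 32.96, 30.38 and 34.64 FPKM in WT-veh and at 23.36, 30.31, 30.31 and 26.70 FPKM in WT-DES, a ratio of 1.19 that missed the threshold (-0.24 ± 0.09, adjusted p = 0.02). The samples of these groups did not overlap for Lrp5. The direction of Lrp5 depended on the processing, with a change of 0.18 under the rescaling without the most abundant genes and of -0.70 after the length correction, when it was a DEG (adjusted p = 2.5e-05). Fzd3 (3.33 ± 0.310 and 2.37 ± 0.305 FPKM) and Fzd5 (3.76 ± 0.320 and 3.36 ± 0.536 FPKM) were not DEGs, although both were after the length correction (-0.92 and -0.50) and with quantile normalisation (-0.85 and -0.62).

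**Figure D4:**
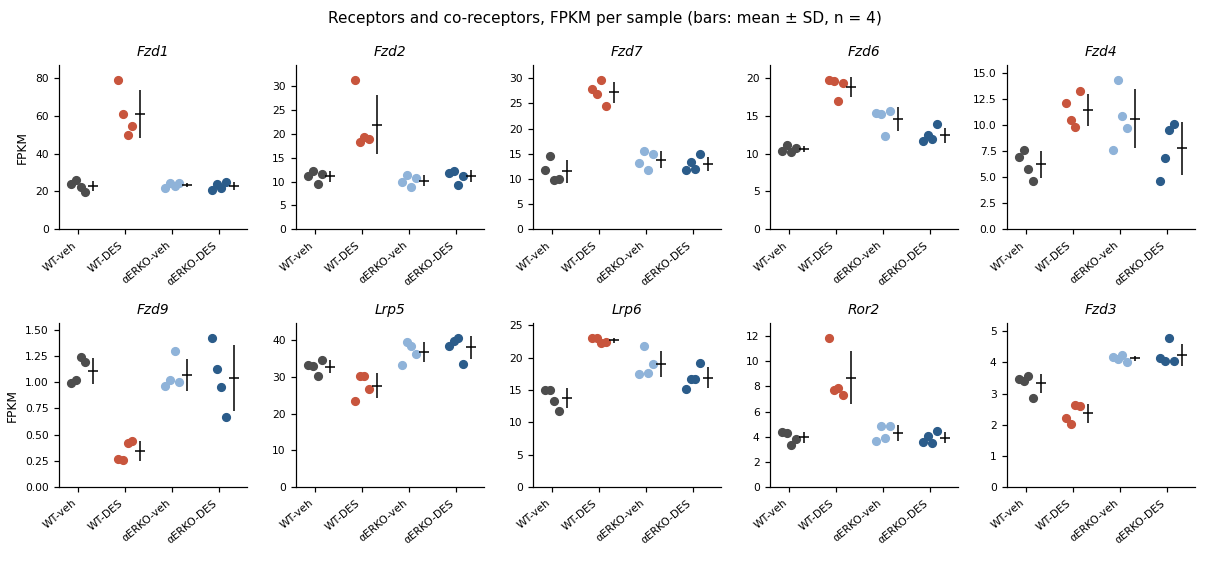
FPKM of 10 receptor and co-receptor genes in each sample (points) of the 4 groups on linear axes from 0, with the mean and SD beside them. Fzd1, Fzd2, Fzd6, Fzd7, Lrp6 and Ror2 are highest in WT-DES, Fzd9 is lowest there at 0.260 to 0.440 FPKM, and Fzd4 overlaps between WT-DES and αERKO-veh.

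In the R-spondin and Lgr group, 1 of 4 genes was a DEG in WT-DES, a lower share than the 52.7% of all genes. Rspo1 was at 1.12, 1.16, 0.97 and 1.17 FPKM in WT-veh and at 7.89, 11.31, 5.61 and 9.37 FPKM in WT-DES (2.15 ± 0.17, adjusted p = 3.3e-08). Rspo3, the most abundant gene of this group in WT (Lgr4 was higher in αERKO), was at 17.26, 20.06, 19.51 and 13.80 FPKM in WT-veh and at 9.32, 29.41, 28.34 and 25.70 FPKM in WT-DES. Sample 1 was the lowest and the other 3 were the highest of both groups, and the change of 0.27 ± 0.29 (adjusted p = 0.41) became 0.64 (adjusted p = 0.0059) and met the DEG thresholds without that sample. Rspo3 was at 16.90, 12.52, 8.33 and 15.62 FPKM in αERKO-veh and at 17.92, 16.27, 14.19 and 15.28 FPKM in αERKO-DES.

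Lgr5, a receptor of R-spondins and itself a β-catenin target in several epithelia, was likewise lowest in that library, at 1.70 FPKM in WT-DES sample 1 and at 5.82 to 11.18 in the other 3, around the 5.15 to 7.18 of WT-veh. Its change in WT was -0.20 with sample 1 and 0.22 without it, so it had no stable direction. Lgr4 was at 15.4 ± 1.66 FPKM in WT-veh and 15.7 ± 2.07 in WT-DES, with a change of 0.02 ± 0.11 that was -0.039 without sample 1. Porcn, whose product attaches the lipid that Wnt proteins need for secretion, was at 10.51, 9.38, 9.79 and 11.03 FPKM in WT-veh and at 15.30, 9.49, 11.90 and 11.83 FPKM in WT-DES (0.22 ± 0.13, adjusted p = 0.15). The αERKO samples of Porcn spanned 8.06 to 12.43 FPKM.

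Of the 4 intracellular genes, Tcf7 alone was a DEG in WT-DES, again below the share of 52.7% of all genes. Tcf7, a β-catenin partner that is also expressed in T cells, was at 62.02, 47.48, 45.17 and 49.00 FPKM in WT-veh and at 11.05, 34.50, 26.29 and 21.74 FPKM in WT-DES (-1.18 ± 0.23, adjusted p = 0.00034, and -0.88 without sample 1). The groups did not overlap, and the part of T cells in these values was not tested. Axin2, a feedback inhibitor and widely used target of β-catenin, was at 23.05, 28.41, 24.70 and 23.12 FPKM in WT-veh and at 11.53, 20.03, 16.34 and 19.46 FPKM in WT-DES. All WT-DES samples were lower, but the ratio of 1.47 was just under the fold threshold (-0.56 ± 0.17, adjusted p = 0.008, and -0.40 without sample 1). It was a DEG after the length correction (-0.67, adjusted p = 0.0025) and when WT-veh sample 1 or 4 or WT-DES sample 2 or 4 was left out. Axin2, Lef1 and Lgr5 are given in detail here after their values were seen.

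Lef1 was at 3.17 ± 0.394 FPKM in WT-veh and at 1.08, 3.61, 3.93 and 2.35 FPKM in WT-DES, again with sample 1 the lowest (-0.23 ± 0.22, adjusted p = 0.36, and 0.029 without it). Ctnnb1, which encodes β-catenin, was at 198.64, 200.03, 190.37 and 195.74 FPKM in WT-veh and at 244.41, 206.72, 205.94 and 212.39 FPKM in WT-DES (0.14 ± 0.07, adjusted p = 0.069). Its change was 0.58 after the rescaling, short of the fold threshold, and 0.98 with quantile normalisation, when it was a DEG (adjusted p = 8.9e-09). It was the most abundant of the 48 genes in all 4 groups, between 186.42 and 216.26 FPKM in αERKO.

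**Figure D5:**
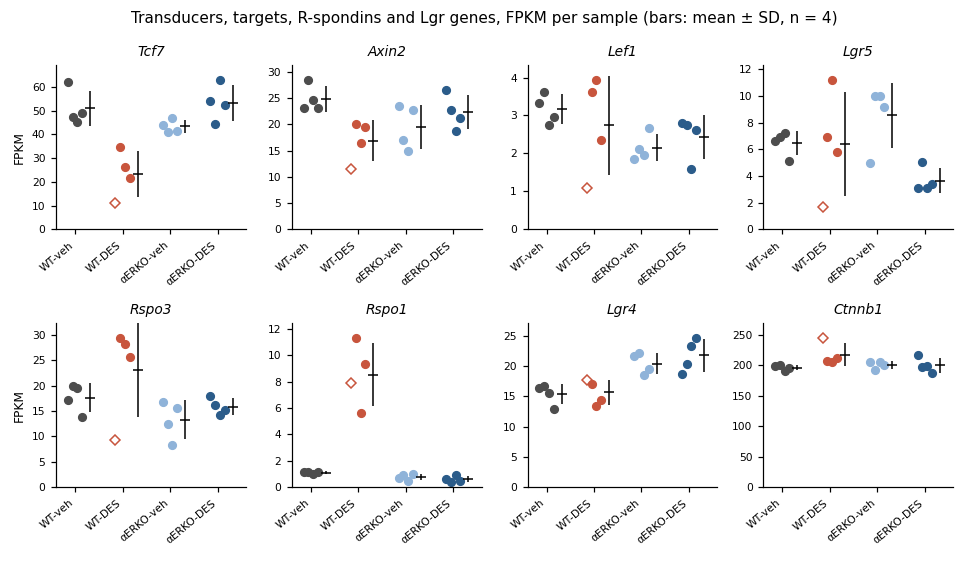
FPKM of 8 intracellular, R-spondin and Lgr genes in each sample (points) of the 4 groups on linear axes from 0, with the mean and SD beside them and WT-DES sample 1 as an open diamond. The diamond is the lowest WT-DES point for Tcf7, Axin2, Lef1, Lgr5 and Rspo3, at 9.32 FPKM for Rspo3, and the highest for Lgr4 and Ctnnb1.

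A list of 13 genes often used as readouts of β-catenin activity, which includes Tcf7, Lef1, Axin2 and Lgr5, was set beside these values. In WT-DES 7 of the 13 fell (background 23.9%) and 2 rose (28.9%), with a median log2 change of -0.65. The genes that fell were Sp5, Nkd1, Notum, Rnf43, Ccnd1, Myc and Tcf7, and those that rose were Apcdd1 and Wisp1. Nkd1, a negative-feedback inhibitor of Wnt signalling, went from 105.8 ± 11.3 to 23.8 ± 8.28 FPKM (-2.17 ± 0.20, adjusted p = 2.2e-07). Ccnd1 and Myc also serve general proliferation, and the epithelial markers fell in the same samples, so these values are not a measure of β-catenin activity by themselves.

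Over a wider set of 58 pathway genes outside the list, 57 were in the table and 51 were tested. In WT-DES 22 rose and 9 fell, together 60.8% of those tested against 52.7% of all genes. The largest rises were those of Gpc3, a cell-surface glypican (2.84), Nkd2, a relative of Nkd1 (1.76), and Gpc6 (1.59). The largest falls were those of Dkkl1, a Dickkopf-like gene (-3.33), Sost, a secreted Lrp antagonist (-2.71), and Nkd1. Dkkl1 was abundant in WT-veh at 325.9 ± 17.7 FPKM and was at 33.0 ± 10.6 FPKM in WT-DES. Gpc3 went from 6.80 ± 1.80 to 53.9 ± 3.70 FPKM.

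The second comparison, αERKO-veh against WT-veh, addressed loss of ERα without DES, which cannot be told apart from the source of the mice. Of the 41 genes, 3 were DEGs, a share of 7.32% against 7.12% of all genes tested. Frzb and Fzd4 were higher, against a background of 4.50%, and Wnt6 was lower (-0.77 ± 0.23, adjusted p = 0.026), against 2.63%. The share was that of the table as a whole. In this comparison log2 changes rose with transcript length over 15049 genes (Spearman rho 0.55, across genes, which are not independent replicates), and after a correction for length Frzb alone was a DEG, beside 3.02% of all genes. After rescaling without the most abundant genes 6 were higher and 0 lower, against 9.09% and 0.763% of all genes. Leaving out WT-DES sample 1, which enters only the shared spread here, made Wnt2b a DEG (0.54, adjusted p = 0.013). There were 0 DEGs without WT-veh sample 3 or without αERKO-veh sample 2, beside 4.47% and 2.62% of all genes. A single DEG was left without WT-veh sample 4 or αERKO-veh sample 3, beside 4.83% and 6.40%. Skeletal muscle markers, at sums of 22.8 to 62.7 (WT-veh) and 38.0 to 70.4 (αERKO-veh), included 4 of 10 that were higher. Their part was not tested. Of the 51 other pathway genes tested, Apc and Pygo1 were higher and Nkd1 was lower, together 5.88% against 7.12% of all genes. Of the 13 readout genes of β-catenin activity, Nkd1 and Myc were lower (15.4%).

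Smaller differences in αERKO-veh passed the adjusted p but not the fold threshold. Wnt2 (-0.50, adjusted p = 0.021) and Wnt7b (-0.48, adjusted p = 0.013) were lower. Fzd6 (0.42, adjusted p = 0.0063), Lrp6 (0.44, adjusted p = 0.0072), Fzd5 (0.39, adjusted p = 0.018), Lgr4 (0.39, adjusted p = 0.019) and Fzd3 (0.25, adjusted p = 0.043) were higher. The longest transcripts of Wnt2 and Wnt7b have 2255 and 3400 nt. Those of the higher genes have 4325 (Fzd6) to 12734 nt (Fzd3). The part of transcript length in these differences was not tested. The summed level of the ligands was 72.2 ± 5.03 FPKM in αERKO-veh, below the 88.08 to 96.37 FPKM of every WT-veh sample. The totals of all genes were lower as well, at 479045 to 558591 FPKM in αERKO-veh and 590446 to 652708 in WT-veh. The ligand sums were not corrected for this.

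The third comparison, αERKO-DES against αERKO-veh, asked what DES did without ERα. With limma and Benjamini-Hochberg adjustment 0 of the 41 genes were DEGs, while the unadjusted p was 0.05 or less for 7. Of the 51 other pathway genes tested, Gpc3 (-1.05, adjusted p = 0.036) and Cthrc1 (-0.75, adjusted p = 0.042), a secreted collagen triple helix repeat protein gene, were lower. The background was 1.49% of all genes, with 0.0876% higher and 1.41% lower. The lowest adjusted p belonged to Sfrp5 (-0.95 ± 0.32, adjusted p = 0.097) and Lgr5 (-1.02 ± 0.34, adjusted p = 0.098). Lgr5 was at 4.96, 9.96, 10.01 and 9.20 FPKM in αERKO-veh and at 3.07, 5.05, 3.07 and 3.36 FPKM in αERKO-DES, which overlapped in 1 sample. Without αERKO-veh sample 1 it was a DEG (-1.23, adjusted p = 0.046), and leaving out WT-DES sample 1, which enters only the shared spread, made DEGs of Lgr5 and Wnt2b. With sample weights 4 genes became DEGs, all lower: Lgr5 (-0.98), Sfrp5 (-0.89), Frzb (-0.63) and Wnt2b (-0.60). With these weights 6.21% of all genes were DEGs, 5.76% being lower. In the same samples 6 of 10 skeletal muscle and 4 of 6 adipose markers were lower, with adipose sums of 11.9 to 32.9 and 5.03 to 10.5, and their part was not tested.

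The fourth comparison set αERKO-DES against WT-DES. It shares the WT-DES samples with the first comparison and is not independent of it, and the source of the mice differs here too. A total of 27 of 41 genes were DEGs, against 53.4% of all genes. In αERKO-DES 22 were lower, against 29.6%, and 5 were higher, namely Wnt10a, Fzd3, Fzd9, Wif1 and Tcf7, against 23.7%. Without the 4 genes tested through WT-DES alone, 18 of 37 were lower and 5 higher. Sfrp5 was lower in αERKO-DES (-1.25 ± 0.32, adjusted p = 0.0024), although it was not a DEG with DES in WT. With quantile normalisation it was not a DEG here either. Wnt6 (0.47 ± 0.23, adjusted p = 0.079) and Fzd4 (-0.55 ± 0.21, adjusted p = 0.032) were not DEGs here. With quantile normalisation 8 were higher and 17 lower, against 26.2% and 22.4% of all genes. After the length correction 8 were higher and 20 lower, against 22.8% and 29.0%. After the rescaling without the most abundant genes 3 were higher and 26 lower, against 12.7% and 39.9%. Without WT-DES sample 1, Frzb (adjusted p = 0.076) and Fzd6 (-0.54, short of the fold threshold) were no longer DEGs. Fzd5 (0.46), Lgr5 (-0.93) and Rspo3 (-0.77) became DEGs without it. In the same comparison all 6 fibroblast, 10 leukocyte, 5 endothelial and 6 adipose markers tested were lower in αERKO-DES. Higher were 6 of 7 epithelial and 5 of 6 smooth muscle markers, all 8 secretion genes and all 4 prostate genes. Their part in the values of the Wnt genes was not tested.

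The genotype-by-DES interaction, the difference between the DES responses of WT and αERKO, tested directly whether the response differed by genotype. With the thresholds of an adjusted p of 0.05 and a 1.5-fold difference it was called for 29 of 41 genes, against 56.4% of all genes, with 22 positive (background 29.6%) and 7 negative (background 26.9%), or 19 and 7 of 37 without the 4 genes tested through WT-DES alone. After the rescaling 27 were positive and 3 negative, namely Wnt10a, Wif1 and Tcf7, against 44.5% and 12.3% of all genes. Among the markers, all 6 fibroblast, 9 of 10 leukocyte, all 5 endothelial and all 6 adipose genes were positive. Negative were 6 of 7 epithelial and 5 of 6 smooth muscle markers, all 8 secretion genes and 3 of 4 prostate genes. Their part was not tested. All 8 inhibitors tested were among the 29 genes, from Sfrp2 at 1.37 ± 0.22 and Sfrp5 at 1.26 ± 0.45 to Dkk3 at 3.22 ± 0.21 among those not tested through WT-DES alone, with Wif1 negative. The negative ligands were Wnt2 (-0.59 ± 0.20, adjusted p = 0.015), Wnt6 (-1.25 ± 0.33, adjusted p = 0.0035) and Wnt10a (-1.36 ± 0.19, adjusted p = 2.1e-05). The call for Wnt2 was lost in 14 of 29 alternatives, among them the length correction, quantile normalisation and 7 that left out 1 sample. That for Sfrp5 was lost with quantile normalisation, without a minimum on FPKM and at an adjusted p of 0.01. Axin2 (-0.75 ± 0.24, adjusted p = 0.011) and Tcf7 (-1.47 ± 0.33, adjusted p = 0.0011) were negative as well, whereas Rspo3 (-0.01 ± 0.41), Lgr5 (0.82 ± 0.48), Lef1 (-0.34 ± 0.31) and Ctnnb1 (0.15 ± 0.10) were not called. Without WT-DES sample 1, Fzd8 was no longer called (0.53), whereas Fzd10 (0.72), Lgr5 (1.24) and Wnt7b (-0.61) were, and the signs of Rspo3 (0.36) and Fzd5 (0.021 with the sample and -0.063 without it) changed, neither being called.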

How the data were processed

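SV RNA of 16 samples in 4 groups was sequenced as paired-end reads of 126 nt. According to the study's methods the authors required an average quality over 20 and used TopHat 2.0.4 for alignment to the mouse genome (mm10, GRCm38) and Cufflinks 2.0.2 for quantification. The deposited table holds the resulting FPKM of each gene. The gene annotation of the table and any further scaling are not given in the sources used here, and depth per sample is unknown.

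Values were analysed as log2(FPKM + 1), with a pseudocount of 1, in R 4.3.3 with limma 3.58.1. All 16 samples entered 1 model of group means with trended empirical Bayes variances. P-values were adjusted by Benjamini-Hochberg over the 15988 genes whose mean FPKM was above 1 in some group. Groups came from the sample labels, and no per-sample column was left unmapped. A change is a DEG as defined in the results. The fit was tested on simulated data with known changes.

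The 48 genes, their roles and the other gene lists were chosen with earlier results of these data known, so no p-value is given for a list. By rule, each role group is described in full for up to 4 DEGs of WT-DES with the largest change, the gene highest in WT-veh, and any DEG of the 2 comparisons that involve αERKO-veh. Other pathway genes are named for the 3 largest changes in each direction. Transcript lengths came from GENCODE M21 and promoter windows from RefSeq on GRCm38.p6, matched by symbol.

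The alternatives were pseudocounts, filters, scalings, sample weights, corrections for length and GC content, a stricter adjusted p, the replicate block, and leaving out each sample. The labels do not say whether replicate numbers mark shared animals or batches. Deviations of same-numbered samples correlated with a median r of -0.016 over 24 pairs, 3 of them over 0.1, and a highest r of 0.277. Over the 72 other pairs the median was 0.020 and the highest r 0.261.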

Additional observations from a re-analysis of the deposited data

Results flagged for a closer look

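Single samples stood far from the other 3 of their group in 12 of the 164 gene-by-group sets examined, by a gap to the nearest sample, as a share of the group's range on the log2(FPKM + 1) scale, above the critical value of Dixon's test. Such a gap is met by chance in about 5% of sets. WT-DES sample 1 accounted for 4 of the 12. It was high for Wnt7b (gap ratio 0.844), Fzd2 (0.887) and Ror2 (0.847) and low for Rspo3 (0.880). WT-DES sample 3 was low for Fzd6 (0.873).

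In the remaining groups, αERKO-veh sample 2 was high for Wnt10b (0.868), αERKO-veh sample 3 low for Fzd6 (0.892) and αERKO-veh sample 1 low for Lgr5 (0.875). αERKO-DES sample 3 was high for Fzd3 (0.871) and low for Lef1 (0.868), and αERKO-DES sample 4 was high for Frzb (0.875). For Wnt16, WT-veh sample 4 (0.12 FPKM) differed from 3 equal values of 0.03 FPKM, which gives the highest possible ratio, 1.00.

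The response to DES differed between WT and αERKO by the interaction test for 29 genes. The values are the log2 change in WT minus the log2 change in αERKO. The positive ligand values were 2.09 for Wnt2b, 1.56 for Wnt5a, 1.70 for Wnt5b, 1.49 for Wnt9a, 0.91 for Wnt11 and 1.09 for Wnt16. Wnt11, Wnt16 and Sfrp4 were tested through their level in WT-DES alone, so their values are a description. Those of the receptors were 1.40 for Fzd1, 0.78 for Fzd2, 1.22 for Fzd4, 0.99 for Fzd6, 1.27 for Fzd7, 0.62 for Fzd8, 0.85 for Lrp6 and 1.06 for Ror2. The inhibitors gave 2.33 for Dkk2, 3.22 for Dkk3, 2.46 for Sfrp1, 1.37 for Sfrp2, 4.09 for Sfrp4, 1.26 for Sfrp5 and 1.64 for Frzb, and Rspo1 gave 2.28. The negative values were -0.59 for Wnt2, -1.25 for Wnt6, -1.36 for Wnt10a, -0.62 for Fzd9, -4.02 for Wif1, -0.75 for Axin2 and -1.47 for Tcf7.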

How the results depend on the processing

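Of 102 gene results examined under 30 alternatives, 16 of which left out 1 sample, 59 kept their direction and call throughout. Between WT-DES and WT-veh the count of DEGs was 27 to 29 when each sample was left out in turn, beside 51.2% to 54.2% of all genes. Between αERKO-veh and WT-veh it was 6 after rescaling without the 20 most abundant genes, beside 9.85% of all genes. After the length correction it was 1 (Frzb, beside 3.02%), and at an adjusted p of 0.01 it was 0 (beside 2.51%). With samples left out it was 0 to 4, beside 2.62% to 10.6%. It was 0 without WT-veh sample 3 or αERKO-veh sample 2 and 1 without WT-veh sample 4 or αERKO-veh sample 3. Between αERKO-DES and αERKO-veh it was 4 with sample weights, beside 6.21%. With samples left out it was 0 to 2, beside 0.00625% to 4.08%. The replicate block left the counts of the 5 tests at 3, 28, 0, 27 and 29 and changed no count of calls, and pairing by number had no source in the labels.

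Log2 changes that reversed were those of genes that were not DEGs, except Wnt10b and Fzd8, and the cause was not tested. After rescaling, the change in WT was 0.034 for Wnt2, 0.072 for Wnt7b, 0.20 for Fzd5, 0.18 for Lrp5, 0.17 for Lgr5 and 0.10 for Lef1. With quantile normalisation it was -0.11 for Wnt10b, 0.0070 for Lrp5 and -0.061 for Sfrp5, and Fzd8 was at 0.025 between αERKO-DES and WT-DES and at -0.042 in the interaction. Lgr4 was at -0.074 with sample weights, -0.19 after the length correction, -0.048 after the GC correction and -0.053 to 0.089 with samples left out. Lgr5 was at 0.14 and Lef1 at 0.015 with sample weights. With samples left out Lgr5 ranged from -0.50 to 0.22 and Lef1 from -0.39 to 0.029, both highest without WT-DES sample 1. Depth is unknown, so genes near 1 FPKM are the least certain.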
